A study of Homo sapiens with 23 samples.

Results

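The baseline transcriptome of the colorectal carcinoma line HCT116 was examined in 3 RNAseq libraries of wild-type cells. The 3 libraries were chosen by their label as wild type, out of 15 RNAseq samples and 23 samples in the series. The other 12 RNAseq samples come from knockout lines derived from HCT116 cells, 3 samples from each line. AGO1 or AGO2 alone, both together, or AGO1, AGO2 and AGO3 had been disrupted in them. Since each genotype is present as 1 cell line, genotype and line cannot be told apart. All 5 lines were grown in the same serum-containing medium and used at passages 12 to 18, and the labels name no treatment. The study sequenced these cells to learn how loss of argonaute proteins affects steady-state RNA.

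Counts assigned to genes totalled 29405825 in wild-type replicate 1, 29140175 in replicate 2 and 32381721 in replicate 3. The knockout libraries held 27709971 to 45271146 counts. The authors deposited estimated counts per gene, which were scaled here to counts per 1000000 counts of the library (CPM). A gene was called detected at 1 CPM or more in each of the 3 libraries. It was called silent at 3 counts or fewer in each, which corresponds to 0.102, 0.103 and 0.0926 CPM. Such floors cover counting error only. Levels of different genes were compared after division by gene length, as CPM per kilobase of exon (RPKM), except where genes are ranked by their counts. The study calls the samples biological replicates, but nothing says that they came from separate cultures, so p-values measure only the spread between these samples, which may be technical.

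HCT116 cells carry activating mutations in CTNNB1 and PIK3CA. In colorectal epithelium, WNT signalling through β-catenin maintains proliferating crypt cells, and RAS signalling through ERK drives growth. Argonaute proteins load microRNAs (miRNAs), pair them through a short seed with target mRNAs, and recruit TNRC6 proteins, which bring deadenylases and decapping enzymes to the target.

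The wild-type libraries measured the long host transcripts of several miRNAs, which do not measure the mature miRNAs themselves. Mature sequences from some of the detected hosts, picked to show shared seeds and known miRNAs of epithelial and cancer cells, are printed 5′ to 3′ from RefSeq (GRCh38.p14), with the seed, bases 2 to 8, in capitals. They are grouped by shared seed, because members with the same seed can pair with the same target sites.

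The let-7 seed is shared by let-7a-5p and let-7b-5p. The hairpin of let-7a lies in an intron of MIR100HG (mature sequence at chr11:122146568-122146589, minus strand) and, as a further copy, in an exon of MIRLET7BHG (chr22:46112752-46112773, plus strand). The let-7b hairpin lies in an exon of MIRLET7BHG (chr22:46113691-46113712, plus strand).
let-7a-5p: uGAGGUAGuagguuguauaguu
let-7b-5p: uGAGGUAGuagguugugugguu

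The next seed is shared by miR-17-5p and miR-20a-5p, from an exon of MIR17HG (chr13:91350618-91350640 and chr13:91351072-91351094, plus strand), and by miR-106b-5p, from an intron of MCM7 (chr7:100094043-100094063, minus strand).
miR-17-5p: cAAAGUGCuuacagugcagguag
miR-20a-5p: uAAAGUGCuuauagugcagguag
miR-106b-5p: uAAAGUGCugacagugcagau

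The same 2 hosts hold a further seed pair, miR-92a-3p in an exon of MIR17HG (chr13:91351361-91351382, plus strand) and miR-25-3p in an intron of MCM7 (chr7:100093571-100093592, minus strand).
miR-92a-3p: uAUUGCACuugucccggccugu
miR-25-3p: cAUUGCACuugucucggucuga

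On the X chromosome, miR-221-3p (chrX:45746180-45746202, minus strand) overlaps an exon of MIR222HG and miR-222-3p (chrX:45747036-45747056, minus strand) lies in its intron, and both share a seed.
miR-221-3p: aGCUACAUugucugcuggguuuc
miR-222-3p: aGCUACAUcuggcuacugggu

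Further miRNAs shown have no seed partner in this set. They are miR-100-5p and miR-125b-5p from introns of MIR100HG (chr11:122152275-122152296 and chr11:122099809-122099830, minus strand), miR-21-5p from an exon of VMP1 (chr17:59841273-59841294, plus strand), and miR-200c-3p from an intron of MIR200CHG (chr12:6963742-6963764, plus strand), a miRNA of epithelial cells.
miR-100-5p: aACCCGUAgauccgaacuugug
miR-125b-5p: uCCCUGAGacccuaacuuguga
miR-21-5p: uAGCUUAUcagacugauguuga
miR-200c-3p: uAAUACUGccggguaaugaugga

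Wild-type replicate 2 stood apart from the other wild-type libraries. Over 12886 genes with a mean of at least 100 counts, the median absolute log2 difference was 0.24 between replicates 1 and 2 and 0.28 between replicates 2 and 3, against 0.13 between replicates 1 and 3. More than 2-fold differences were seen for 535 and 748 genes in the pairs with replicate 2, and for 105 genes between replicates 1 and 3. The long non-coding RNA MALAT1 took 2.74% of the counts in replicate 2, against 1.28% and 0.99% in replicates 1 and 3. The main counts are therefore given with and without replicate 2, and values of single genes are given per library where it stands out.

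The targeted argonaute genes were examined in every library to check the labels. AGO1 was at 150, 116 and 150 CPM in wild-type replicates 1 to 3. It was at 35.1, 31.8 and 38.8 CPM in AGO1 knockout libraries, 36.1, 38.6 and 35.2 CPM in AGO1/2 knockout libraries and 34.3, 32.3 and 27.1 CPM in AGO1/2/3 knockout libraries, all below wild type. In the AGO2 knockout line, where AGO1 was not targeted, it was at 158, 153 and 157 CPM. AGO3 was at 109, 140.4 and 109 CPM in wild-type libraries and at 50.1, 56.0 and 43.6 CPM in AGO1/2/3 knockout libraries. Its range in the lines with AGO3 untargeted was 77.7 to 116 CPM. AGO2 was at 411, 494 and 391 CPM in wild-type libraries, and its RNA remained in every line labelled as an AGO2 knockout. It was at 258, 304 and 276 CPM in AGO2 knockout and 326, 339 and 349.7 CPM in AGO1/2 knockout libraries, below all wild-type libraries, but at 500.1, 544 and 509 CPM in the libraries labelled AGO1/2/3 knockout, above all wild-type libraries. In AGO1 knockout libraries it was at 341, 359 and 345 CPM. A mutated gene can still be transcribed, and the RNA level does not measure the protein, so AGO2 RNA does not check the AGO2 label of the AGO1/2/3 line. The study examined the lines by DNA sequencing and western blotting, which are not part of these files. In every wild-type library AGO1 and AGO3 lay above the libraries of the lines in which they were targeted.

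Of the 57875 genes listed, 57167 were matched to a gene name. Protein-coding genes took 89.4%, 86.8% and 88.9% of the counts in wild-type replicates 1 to 3. Long non-coding RNAs (lncRNAs) took 4.10%, 5.61% and 3.63%, in which MALAT1 alone took 1.28%, 2.74% and 0.99%. A further lncRNA, MIR663AHG, was at 10289, 8010 and 10358 CPM, above MALAT1 in replicate 3. Small nuclear RNAs took 1.27%, 1.63% and 1.44%, most of it from RN7SK at 12072, 15652 and 13446 CPM. Of 19672 protein-coding genes, 12668 (64.4%) were detected, with a median level of 5.05 RPKM over the detected genes. Without replicate 2, 12793 were detected. Expression was concentrated: 1505 protein-coding genes at 100 CPM or more in each library took 59.7% of protein-coding counts, and 43 genes reached 1000 CPM in each.

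The highest length-scaled levels belonged to short structural RNAs. RN7SL2 and RN7SL1, the RNA component of the signal recognition particle, were at 60802 ± 6577 and 42826 ± 4298 RPKM (SD, n = 3). These genes are near-identical copies, so the split between them is uncertain. RN7SK, which holds the elongation factor P-TEFb in an inactive complex, was at 41839 ± 5506 RPKM. RMRP and RPPH1, the RNAs of the nucleases RNase MRP and RNase P, were at 23101 ± 3032 and 8419 ± 654 RPKM (SD, n = 3). MIR3648-1, at 6156 ± 549 RPKM, has near-identical copies and is reported as uncertain. The telomerase RNA TERC was at 82.7 ± 10.6 RPKM, the minor spliceosome RNA RNU4ATAC at 11.7 ± 0.296 RPKM, and the vault RNA VTRNA1-1 had 3 counts or fewer in each library.

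Mitochondrially encoded mRNAs were also among the highest by length. The 13 genes together took 78203, 83273 and 82896 CPM, and all 13 were detected. MT-CO3 and MT-CO1, subunits of cytochrome c oxidase, were at 14274 ± 867 and 11331 ± 974 RPKM (SD, n = 3). Among nuclear protein-coding genes, TMSB10, which binds actin monomers, had the highest level, at 2066, 1845 and 2758 RPKM. It was followed by the ribosomal protein gene RPL41 at 1286 ± 42.9 RPKM, the histone gene H4C11 at 1150 ± 268 RPKM and the translation elongation factor gene EEF1A1 at 1069 ± 124 RPKM (SD, n = 3). This order depends on the length used, the union of annotated exons. That length was 0.461 kb for TMSB10, 1.108 kb for RPL41 and 10.06 kb for EEF1A1. Before division by length, EEF1A1 averaged 10756.5 CPM and TMSB10 1024.8 CPM. By mean counts RN7SL2 and MT-CO1 led with and without replicate 2, and MALAT1 led in replicate 2 alone. AKAP12, a scaffold protein for protein kinase A, was among the 15 leading genes by the mean of the 3 libraries, at 3766, 6290 and 4733 CPM. The 10 genes with the most counts took 11.8%, 14.5% and 12.9% of each library.

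HCT116 cells expressed an epithelial programme. The 4 genes chosen to describe these cells were all detected, as were 64.4% of protein-coding genes. EPCAM and KRT18 bear on epithelial lineage, while MYC and CEMIP do not. EPCAM, an epithelial adhesion molecule, was at 223, 227 and 228 CPM in replicates 1 to 3, and KRT18, a keratin of simple epithelia, at 528, 593 and 499.6 CPM. The oncogene MYC was at 325, 243 and 321 CPM. CEMIP, a hyaluronan-binding protein linked to tumour cell invasion, was at 17.4, 7.38 and 14.4 CPM. EPCAM and KRT18 were steady across the libraries, while MYC and CEMIP were lowest in replicate 2.

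Of 15 epithelial genes, 13 were detected, with a list median of 23.8 RPKM. The keratins KRT18, KRT19 and KRT8 led the list at 176 ± 15.6, 159 ± 31.4 and 98.9 ± 5.01 RPKM (SD, n = 3), and EPCAM followed at 92.9 ± 1.02 RPKM. The adhesion and junction genes CDH1, CLDN7 and CLDN4 were at 17.1 ± 5.87, 46.9 ± 18.6 and 23.8 ± 2.49 RPKM, and the epithelial splicing regulator ESRP1 was at 57.1 ± 24.8 RPKM. CDH1 was at 91.7, 144 and 76.4 CPM, highest in replicate 2, as were ESRP1 and CLDN7. The exceptions were genes of differentiated intestine. KRT20, the keratin of mature colonocytes, was at 0.714, 0.378 and 0.679 CPM, and the intestinal cadherin CDH17 at 0.443, 0.376 and 0.337 CPM.

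Intestinal identity was partial. Of 9 transcription factors of the intestinal lineage, 6 were detected, a share near the 64.4% of all protein-coding genes. SOX9, a factor of crypt progenitors, and KLF5, a factor of proliferating crypt cells, were highest at 44.3 ± 2.34 and 32.9 ± 10.2 RPKM (SD, n = 3). CDX2 and HNF4A, regulators of intestinal differentiation, were low at 2.57 ± 0.431 and 0.996 ± 0.0733 RPKM. CDX1 had no count in any library, which allows up to 0.103 CPM, and ATOH1, a factor of secretory cells, had 3 counts or fewer in each. Of 14 genes of mature absorptive, goblet and endocrine cells, only CA2 was detected. This carbonic anhydrase gene was at 21.9, 10.2 and 19.8 CPM. The brush-border gene VIL1, the mucin gene MUC2 and the fatty-acid binding protein gene FABP1 were at or below 1.07 CPM in every library. In bulk samples, fewer cells of a type and less RNA per cell cannot be told apart.

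The genes of intestinal stem cells split in the same way. CD44, a receptor for hyaluronan, was at 952, 939 and 990.3 CPM, and ALCAM, PROM1 and EPHB2 were also detected, at 19.6 ± 3.28, 4.19 ± 0.604 and 2.14 ± 0.238 RPKM (SD, n = 3). LGR5, ASCL2, OLFM4 and SMOC2, which mark crypt-base stem cells, were silent. A further list of 8 genes, among them CEMIP, was detected in full. The calcium-binding protein gene S100A14 led by length-scaled level at 85.0 ± 35.5 RPKM, followed by the orphan receptor gene GPRC5A at 64.7 ± 4.57 RPKM and the apical transport gene MAL2 at 58.5 ± 8.90 RPKM (SD, n = 3).

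Markers of other lineages were mostly low. Of 15 mesenchymal genes, 8 were detected, and 2 reached 10 CPM in each library, the collagen gene COL1A1 at 26.2, 29.6 and 20.7 CPM and the fibronectin gene FN1 at 16.5, 15.7 and 15.9 CPM. The intermediate filament gene VIM was at 4.94, 3.40 and 4.97 CPM, and the repressor of CDH1 ZEB1 at 8.56, 10.3 and 9.27 CPM. Of 9 blood and immune genes, the lysosomal gene CD68 alone was detected, at 1.38, 4.23 and 4.81 CPM, and MS4A1 had no count in any library. Summed over the 9 genes, the level was 3.07, 5.72 and 6.42 CPM. One of 5 endothelial genes, PECAM1, and one of 5 hepatocyte genes, the protease inhibitor gene SERPINA1, were detected, at 1.69 ± 0.166 and 4.05 ± 1.51 CPM (SD, n = 3), and the hepatocyte gene TTR had no count. Of 5 neural genes, SYT1 and GFAP were detected. The synaptic vesicle gene SYT1 stood out at 156, 156 and 91.0 CPM, while the neuronal genes SNAP25 and RBFOX3 stayed at or below 1.06 CPM.

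**Figure D1:**
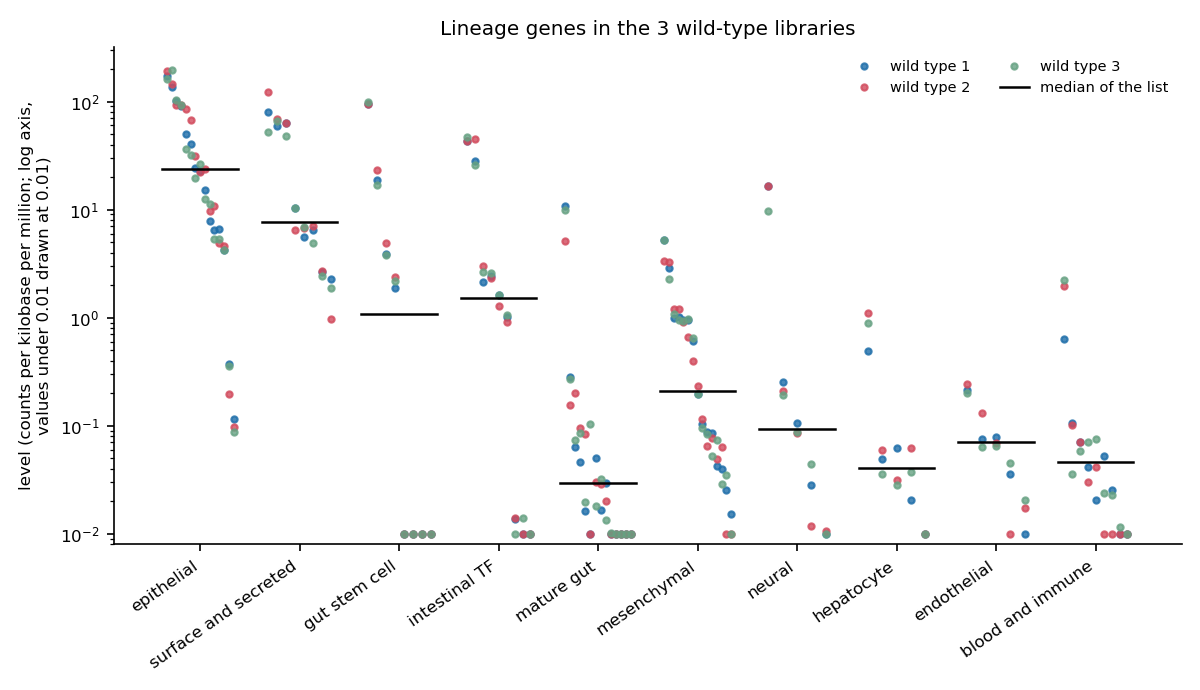
Level of each lineage gene in the 3 wild-type libraries, in RPKM on a log axis, with a bar at the median of each list. Points are coloured by library, and values under 0.01 are drawn at 0.01. Epithelial genes have the highest list median (23.8 RPKM), and the genes of mature gut, hepatocytes, endothelium, blood and neurons have medians under 0.1 RPKM.

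All 26 genes examined for RAS and ERK signalling were detected. The ligands of the epidermal growth factor receptor led the list. AREG was at 410.2, 597 and 245 CPM and EREG at 1035, 1292 and 763 CPM in replicates 1 to 3, and both were highest in replicate 2 and lowest in replicate 3. By length they reached 254 ± 107 and 180.2 ± 46.3 RPKM (SD, n = 3). Among the receptors, MET was at 81.2 ± 2.99 RPKM, EGFR at 13.2 RPKM, ERBB2 at 5.96 ± 0.966 and ERBB3 at 4.35 ± 0.253 RPKM (SD, n = 3). By length NRAS, at 30.9 ± 3.26 RPKM, exceeded HRAS, at 8.96 ± 1.27 RPKM (SD, n = 3). Genes that ERK induces and whose products restrain it differed in level. The phosphatases DUSP5 and DUSP6 had mean levels of 122.8 and 81.6 RPKM and SPRY4 was at 37.6 ± 10.7 RPKM, but IL17RD and SPRY2 were at 3.70 and 2.38 RPKM. DUSP5 was at 286, 477 and 171 CPM, whereas DUSP6 was at 337, 316 and 291 CPM.

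Of 17 WNT pathway genes, 13 were detected. The transcription factor gene TCF7L2 led at 48.6 ± 13.1 RPKM, the secreted inhibitor gene DKK1 reached 44.9 ± 24.3 RPKM, and CTNNB1, which encodes β-catenin, was at 24.6 ± 5.15 RPKM (SD, n = 3). LEF1, a further transcription factor of the pathway, was silent. AXIN2 was at 13.1, 4.09 and 18.5 CPM and DKK1 at 120.4, 38.3 and 140.2 CPM, both lowest in replicate 2. Of the 13 detected genes, 11 were lowest in replicate 2, against 44.6% of the 12886 genes with at least 100 counts. The summed level of the list was 1297, 881 and 1289 CPM, and the level in replicate 2 lay below all 12 knockout libraries (1137 to 1617 CPM).

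The PI3K and TGF-β lists held steadier genes. Of 13 PI3K pathway genes, 12 were detected. PIK3CA, the catalytic subunit gene, was at 48.8, 49.5 and 46.5 CPM. AKT1 and AKT2 were at 9.11 ± 1.49 and 5.49 ± 0.412 RPKM (SD, n = 3). All 11 TGF-β pathway genes were detected. SMAD3, SMAD4 and SMAD2, the signal transducers, were at 14.6 ± 2.35, 5.69 ± 0.653 and 5.58 ± 0.377 RPKM (SD, n = 3). The receptor gene TGFBR2 was at 67.7, 59.4 and 59.9 CPM, and the inhibitor gene SMAD7 was lowest of the list at 0.636 ± 0.0881 RPKM.

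Of 15 cell cycle genes, 14 were detected. CCND1 was far above its paralogues by length, at 117 ± 7.92 RPKM, against 2.14 ± 0.679 RPKM for CCND3 and 0.0141 ± 0.0173 RPKM for CCND2 (SD, n = 3). The kinases CDK4 and CDK6 were at 34.3 ± 4.28 and 13.95 ± 2.66 RPKM. MKI67, which marks cycling cells, was at 1031, 540.3 and 893 CPM, and the transcription factor gene E2F1 at 22.1, 6.69 and 18.4 CPM. Of the 14 detected genes, 12 were lowest in replicate 2, against 44.6% of the 12886 genes with at least 100 counts. The inhibitor gene CDKN2B went the other way, at 12.0, 35.4 and 8.49 CPM.

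All 8 mismatch repair genes were detected. By length PMS1 was highest, at 10.6 ± 1.27 RPKM (SD, n = 3). MSH6, which takes part in mismatch recognition, was at 109.6, 60.8 and 124 CPM, lowest in replicate 2. MSH3 was at 13.1, 12.4 and 13.0 CPM. Of 11 genes of the MYC network, 10 were detected, and MYCN had no count in any library. MYC was highest at 48.6 ± 7.57 RPKM, above its partner MAX at 6.02 ± 0.476 RPKM (SD, n = 3). The antagonist gene MXD1 was at 9.61, 37.9 and 10.2 CPM and the paralogue MYCL at 7.58, 17.7 and 6.86 CPM, both highest in replicate 2.

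**Figure D2:**
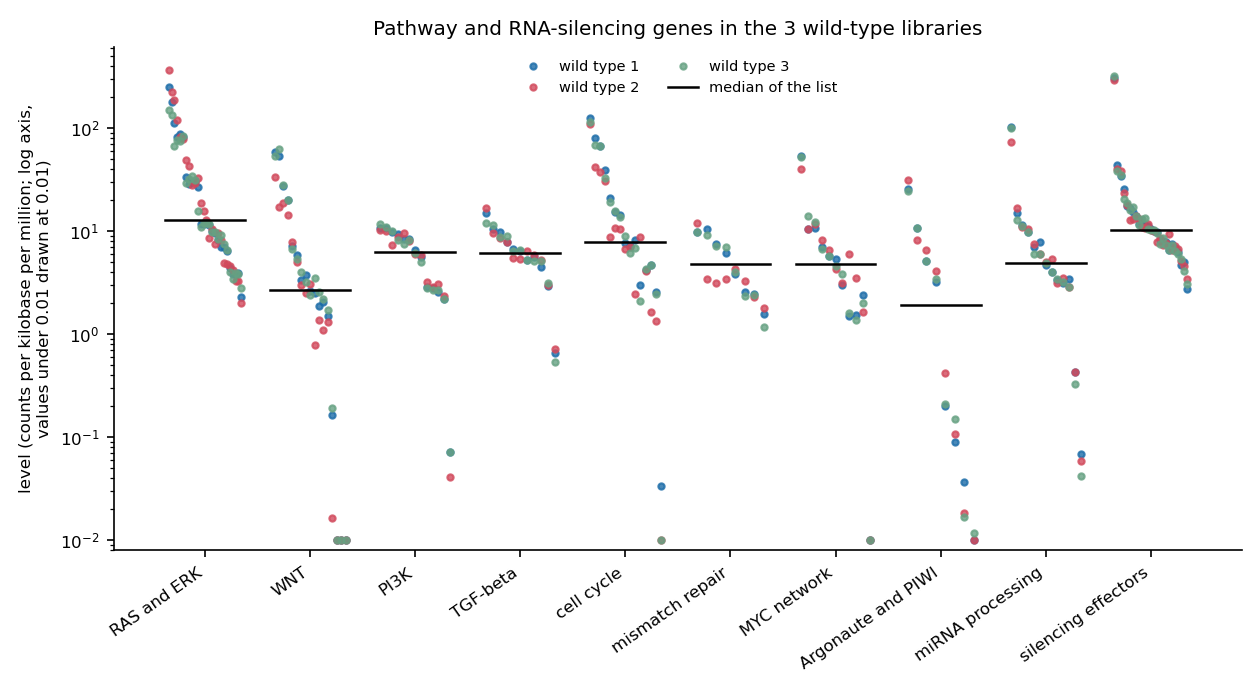
Level of each pathway and RNA-silencing gene in the 3 wild-type libraries, in RPKM on a log axis, with a bar at the median of each list. Points are coloured by library, and values under 0.01 are drawn at 0.01. The RAS and ERK list has a median of 12.8 RPKM and no undetected gene, while the WNT and argonaute lists each hold genes at or near 0.

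The 4 argonaute genes were all detected. By length AGO2 was highest at 27.3 ± 3.46 RPKM, followed by AGO1 at 9.88 ± 1.40, AGO3 at 5.65 ± 0.858 and AGO4 at 3.59 ± 0.491 RPKM (SD, n = 3). Each gene exceeded the next in that order in all 3 libraries. As a share of their summed length-scaled level, AGO2 held 57.7%, 62.1% and 56.1%, AGO1 23.8%, 16.5% and 24.3%, AGO3 11.4%, 13.2% and 11.8%, and AGO4 7.11%, 8.24% and 7.79%. Relative to the other wild-type libraries, replicate 2 held more AGO2 and less AGO1. AGO4 was at 23.7, 30.7 and 25.4 CPM. The germline relatives PIWIL1, PIWIL2, PIWIL3 and PIWIL4 did not pass 1 CPM in every library, and PIWIL4 was highest at 0.898, 1.88 and 0.957 CPM.

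Of 13 genes of miRNA processing, 12 were detected. DROSHA and DGCR8, which cut the primary transcript, were at 11.2 ± 0.224 and 6.61 ± 1.05 RPKM, and DICER1, which cuts the hairpin, at 4.87 ± 0.184 RPKM (SD, n = 3). The export factor XPO5 was at 15.0 ± 1.96 RPKM and its GTPase RAN, which also serves other transport, at 92.9 ± 16.3 RPKM. DROSHA was steady at 89.4, 86.1 and 86.8 CPM, as was DICER1 at 104, 112 and 109 CPM. LIN28A, which blocks let-7 maturation, was at 1.70, 1.71 and 1.30 CPM, and LIN28B at 0.409, 0.354 and 0.248 CPM. ZSWIM8, a ubiquitin ligase subunit that acts in target-directed miRNA decay, was at 31.9, 42.3 and 32.2 CPM.

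All 25 effectors of silencing were detected at 10 CPM or more in each library, and the list's median excess variation (defined below) was 0.0626, against 0.118 over detected protein-coding genes. The argonaute partners TNRC6B, TNRC6A and TNRC6C were at 10.2 ± 0.193, 9.08 ± 1.07 and 4.58 ± 0.427 RPKM (SD, n = 3). TNRC6B was at 199.7, 202 and 207 CPM. The deadenylase scaffold CNOT1 was at 40.9 ± 3.03 RPKM and the helicase DDX6, which links deadenylation to decapping, at 36.2 ± 2.19 RPKM. The poly(A)-binding protein gene PABPC1, whose product serves all mRNAs, was at 308 ± 15.2 RPKM.

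Of 19 miRNA host genes, 15 were detected. VMP1 and MCM7, which encode a membrane protein of autophagy and a subunit of the replicative helicase, were highest at 55.7 ± 9.70 and 43.3 ± 19.7 RPKM (SD, n = 3), and their transcripts serve as mRNAs beside any role as host of miR-21-5p or of miR-25-3p and miR-106b-5p. MCM7 was at 286, 104 and 255 CPM, lowest in replicate 2. MIR100HG was at 143, 175 and 129.6 CPM, MIR222HG at 41.5, 61.0 and 37.8 CPM, MIRLET7BHG at 14.8, 14.5 and 14.2 CPM and MIR17HG at 13.6, 9.71 and 13.4 CPM. The hosts of the printed let-7 sequences were picked from detected hosts, so their detection follows from that choice. A further host of the let-7 seed, MIR99AHG, which holds let-7c-5p, averaged 0.304 CPM. MIR200CHG, the host of miR-200c-3p, was at 2.35, 2.09 and 2.10 CPM. MIR210HG was at 2.01, 1.58 and 6.84 CPM, highest in replicate 3. MIR155HG was silent, and MIR99AHG, MIR205HG and MIR503HG did not reach 1 CPM in each library.

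Of 22 lncRNAs on the list, 21 were matched in the files and 18 were detected. MALAT1, a nuclear RNA of speckles, was at 12763, 27370 and 9895 CPM, highest in replicate 2. NEAT1, the scaffold of paraspeckles, was at 1228, 1647 and 1098 CPM. By length MALAT1 reached 1598 ± 898 RPKM, above NORAD, which binds Pumilio proteins, at 74.5 ± 13.5 RPKM and the snoRNA host GAS5 at 71.0 ± 24.2 RPKM (SD, n = 3). GAS5 was at 284, 488 and 278 CPM. The cancer-associated lncRNAs UCA1 and PVT1 were at 97.2, 97.0 and 139.7 CPM and at 50.2, 57.4 and 47.9 CPM. The developmental lncRNAs HOTAIR, HOTTIP and MEG3 were below 1 CPM in each library.

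Of 19672 protein-coding genes, 3578 (18.2%) were silent, and 2163 had no count in any of the 3 libraries. Without replicate 2, 3777 were silent. A further 3426 lay between silent and detected. Silent genes gathered in families with tissue-restricted roles. Of 413 olfactory receptor genes, 293 were silent and 43 detected. Of 94 keratin-associated protein genes, which build hair, 85 were silent and 1 was detected, KRTAP2-3 at 4.76, 1.76 and 3.28 CPM. None of 36 beta-defensin genes was detected, and 35 were silent. Of 24 bitter taste receptor genes, 9 were silent and 6 detected, and several of these overlap or resemble each other and are uncertain. Of 55 keratin genes, 34 were silent and 9 detected, and of 24 claudin genes, 9 were silent and 7 detected.

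Other families were partly active. The olfactory receptor genes with the highest length-scaled levels lay together on chromosome 11. OR51B4 (chr11:5301014-5301946) was at 23.1, 19.1 and 17.8 CPM and OR51B5 (chr11:5303444-5505652) at 99.3, 66.9 and 82.4 CPM. OR51I1 and OR51B2, at 13.7 ± 1.46 and 12.7 ± 2.02 RPKM (SD, n = 3), lie within the span of OR51B5, so their reads cannot be told apart with certainty. Of 33 genes of the MAGE family, whose best-known members are expressed in testis and tumours, 10 were detected and 20 silent. MAGEB2 was highest at 97.7, 68.9 and 98.9 CPM, and MAGEA3, which has near-identical copies and is uncertain, was at 51.6, 49.7 and 52.9 CPM. Of 39 HOX genes, which set position along the body axis, 24 were detected and 6 silent. HOXB9, HOXB7 and HOXA9 led at 19.2 ± 7.56, 17.3 ± 3.88 and 15.7 ± 0.394 RPKM (SD, n = 3). Of 65 protocadherin genes, 12 were detected and 16 silent, and PCDH7 was highest at 209, 167 and 200.2 CPM.

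Variation between the wild-type libraries was measured as the coefficient of variation in excess of counting noise, over the 12886 genes with a mean of at least 100 counts. Its median was 0.121, and 0.0518 without replicate 2. The medians in the knockout lines were 0.102 for AGO1, 0.0710 for AGO2, 0.0899 for AGO1/2 and 0.0529 for AGO1/2/3. The value without replicate 2 comes from 2 libraries and the others from 3, so it cannot be set against them. In wild type, 299 genes exceeded 0.5 and 15 exceeded 1. Of the 200 most variable genes, 154 were highest in replicate 2 and 131 lowest in replicate 3, whereas over all 12886 genes 39.9% were highest in replicate 2 and 36.3% lowest in replicate 3.

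The 15 most variable genes were all highest in replicate 2. In 8 of them the mean of replicates 1 and 3 is under 100 counts, so they entered the ranking through replicate 2, and the filter favours genes that are high there. LCN2, a secreted protein that binds bacterial siderophores, led at 1.56, 19.2 and 0.834 CPM. SPX, a peptide hormone gene, was at 1.33, 10.3 and 0.216 CPM and the calcium channel gene TRPV6 at 1.98, 15.4 and 1.38 CPM. The remaining genes were HKDC1, OR2A9P, LURAP1L, IL20RB, UPP1, KRT7, DMGDH, RBCK1, NIBAN1, SMIM11, SLFN5 and DYSF. The metabolic genes among them were HKDC1, a hexokinase gene, at 4.90, 21.8 and 0.896 CPM, UPP1, which encodes uridine phosphorylase, at 20.5, 84.8 and 6.92 CPM, and DMGDH, a mitochondrial dehydrogenase gene, at 1.55, 9.13 and 1.54 CPM. RBCK1, a subunit gene of the linear ubiquitin ligase, was at 75.8, 311 and 33.0 CPM, and SLFN5, of the schlafen family, at 75.5, 289 and 37.9 CPM. OR2A9P and SMIM11 have near-identical copies and are uncertain. The genes were ranked on values that peak in replicate 2, so the next count describes them and tests nothing. In 14 of the 15 genes replicate 2 exceeded all 12 knockout libraries. The exception was SMIM11, where knockout libraries reached 11.6 CPM against 8.23 CPM in replicate 2.

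**Figure D3:**
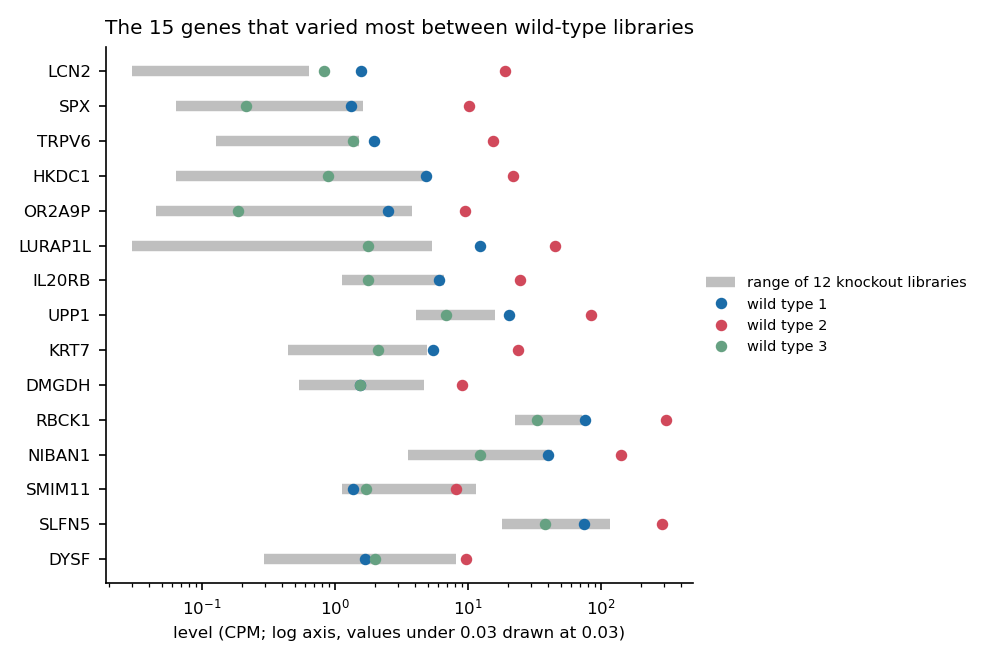
The 15 genes with the largest variation in excess of counting noise between the wild-type libraries, in CPM on a log axis, with values under 0.03 drawn at 0.03. Points are the 3 wild-type libraries and grey bars the range of the 12 knockout libraries. Replicate 2 is the highest wild-type library for each gene, such as LCN2 at 19.2 CPM.

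With replicate 2 left out, 1 of the 15 genes, LURAP1L, was found again among the 15 that differed most between replicates 1 and 3. The 8 genes under 100 counts could not be found again, because the same filter was used. Other genes of that set divided by direction. CHAC1, SLC7A11, TRIB3, ASNS, PSAT1 and SESN2, which are known targets of the amino acid stress factor ATF4, were higher in replicate 1. ASNS, the asparagine synthetase gene, was at 354 CPM in replicate 1 and 76.3 CPM in replicate 3, with 516 CPM in replicate 2. BNIP3, ALDOC, PFKFB4 and ANGPTL4, known to respond to hypoxia, were higher in replicate 3. BNIP3 was at 23.6 CPM in replicate 1 and 98.5 CPM in replicate 3, with 19.7 CPM in replicate 2.

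These genes led to 4 further lists, chosen after their values were seen and therefore given without a test. All 27 genes of DNA replication were lowest in replicate 2, with a median log2 difference of −1.50 from the mean of the other wild-type libraries. PCNA, the sliding clamp gene of replication, was at 149, 49.8 and 159.9 CPM, and the list summed to 3123, 1140 and 2932 CPM. The value in replicate 2 lay below all 12 knockout libraries (1753 to 4196 CPM). All 16 genes of mitosis were lowest in replicate 2 as well, with a median log2 difference of −0.83 and sums of 3445, 1837 and 3107 CPM, against 1446 to 4595 CPM in the knockout libraries. For these lists replicate 2 differed from 2 wild-type libraries that were close to each other.

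Replicate 3 stood at one end for the other lists. Of 23 detected ATF4 targets, 22 were highest in replicate 2 and 23 lowest in replicate 3, with median log2 differences of 1.29 in replicate 2 and −1.46 in replicate 3. Their summed levels were 4849, 6845 and 1987 CPM, and 1103 to 4831 CPM in the knockout libraries. Of 20 detected genes of hypoxia and glycolysis, 19 were highest in replicate 3, against 30.1% of the 12886 genes with at least 100 counts. Their median log2 difference was 1.33. LDHA, the lactate dehydrogenase gene, was at 599, 337 and 1293 CPM. The sums were 2254, 2012 and 5033 CPM, and replicate 3 exceeded all 12 knockout libraries (1948 to 3921 CPM). The part of culture state or handling in these differences was not tested.

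**Figure D4:**
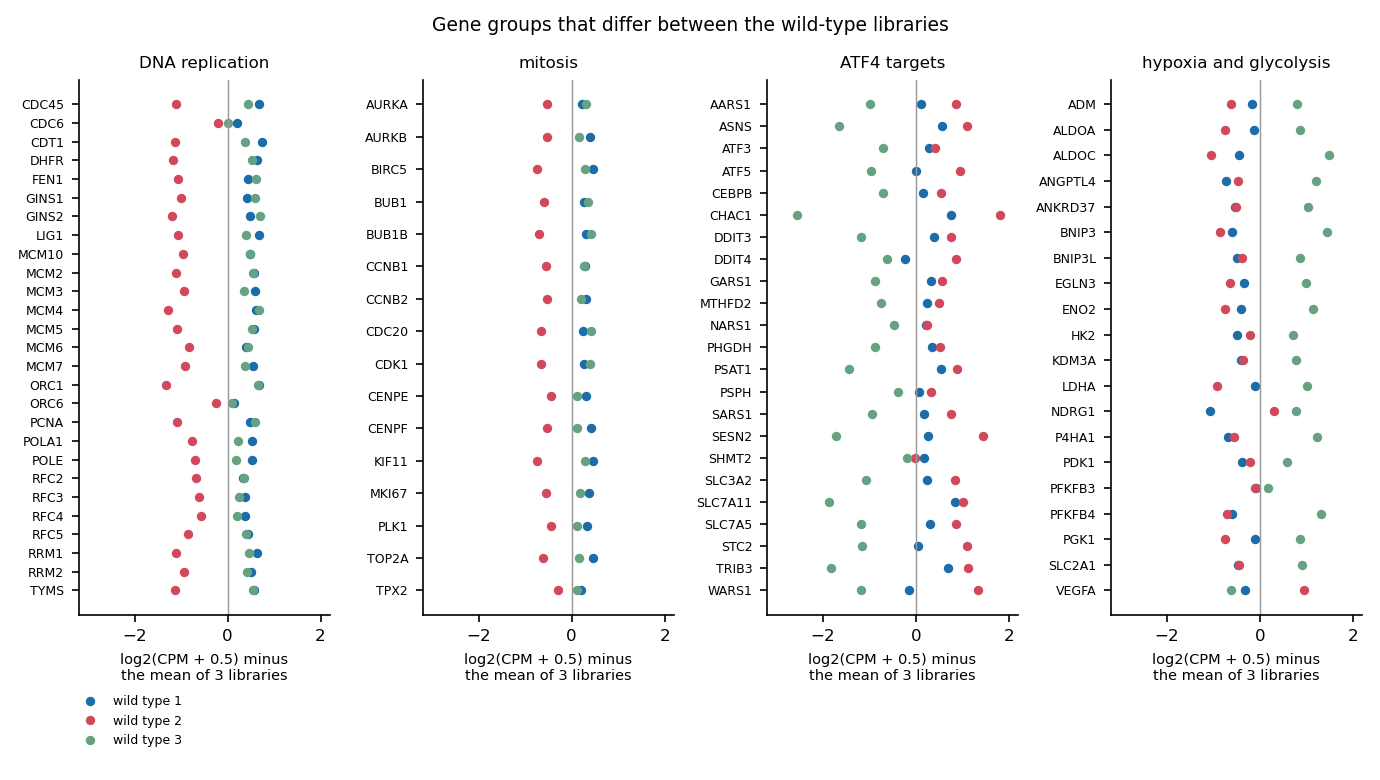
Genes of 4 lists chosen after their values were seen, each as log2(CPM + 0.5) minus the mean of the 3 wild-type libraries. Points are coloured by library. Replicate 2 lies lowest for all 27 replication and all 16 mitosis genes, and replicate 3 lies lowest for all 23 ATF4 targets shown.

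The wild-type libraries were then compared with the mean of the 4 knockout lines, to show where the baseline differs from cells derived from it. Of 22842 genes tested (edgeR quasi-likelihood, Benjamini-Hochberg), 2767 (12.1%) were called higher and 2089 (9.15%) lower in wild type, at an adjusted p at or under 0.05. Of these, 594 had all 3 wild-type libraries above all 12 knockout libraries and 211 had all 3 below. Without replicate 2, 2001 genes were called higher and 1133 lower, of which 1693 and 1013 were among the genes called with all libraries (61.2% and 48.5% of them). Without replicate 1, 1270 were called lower. No gene was called in the opposite direction.

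Of the 8 genes listed with CEMIP, 6 were called higher in wild type, and 6 without replicate 2. Over all genes tested, 12.1% were called higher, and 8.55% without replicate 2. This list was chosen with earlier results of these data known, so its share cannot be set against that of all genes. MAL2 was at 162 to 203 TMM-scaled CPM in wild type, and the knockout libraries ranged from 0.315 to 217 with a median of 30.9, so that the highest knockout library lay above wild type. CEMIP ranged from 6.85 to 16.0 in wild type and from 1.16 to 17.2 with a median of 4.48 in knockout libraries, so that the groups overlapped. PRSS8 and GALNT3 were also called, with knockout libraries up to 19.7 and 11.6 against wild-type libraries from 14.4 and 10.9, and GPRC5A and TSPAN13 were not. Of the genes called, S100A14 alone had all wild-type above all knockout libraries. ANXA10 was called higher, at 9.49 to 12.3 in wild type, but the knockout libraries ranged from 0 to 62.5 with a median of 0.0508, and their mean of 12.8 exceeded the wild-type mean of 11.1. Its call rests on knockout libraries near 0.

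Of 15 epithelial genes tested, 8 were higher and 0 lower, and 6 and 1 without replicate 2. Over all genes tested, 12.1% were higher and 9.15% lower, and 8.55% and 4.84% without replicate 2, and the lists here and below were chosen with earlier results known, so their counts are no test of a list. GRHL2, a transcription factor of epithelial cells, was at 27.3 to 36.6 TMM-scaled CPM in wild type and at 1.02 to 36.3 with a median of 7.88 in knockout libraries. CDH1 was at 74.6 to 134 in wild type and at 7.76 to 80.8 with a median of 33.9 in knockout libraries. EPCAM was at 205 to 222 in wild type and at 61.9 to 282 with a median of 144 in knockout libraries. The wild-type and knockout ranges overlapped for all 3 genes, and KRT18, KRT19 and KRT8 were not called. Among mesenchymal genes, 4 were higher and 3 lower of 14 tested, the higher ones being COL1A1, SNAI1, TWIST1 and PDGFRB and the lower ones VIM, ZEB1 and FN1. COL1A1 was at 20.2 to 27.5 in wild type and at 9.58 to 26.7 with a median of 11.7 in knockout libraries. VIM was at 3.16 to 4.85 in wild type and at 2.17 to 64.8 with a median of 15.8 in knockout libraries.

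In the MYC network 4 of 10 genes tested were higher, MYC, MXI1, MNT and MYCL, and 4 without replicate 2. MNT, which encodes a repressor that pairs with MAX, was at 35.1 to 43.6 TMM-scaled CPM in wild type and at 20.005 to 30.5 with a median of 26.5 in knockout libraries, without overlap. MYC was at 226 to 314 in wild type and at 50.9 to 363 in knockout libraries, so that the groups overlapped. The knockout median of 225 lay just under the lowest wild-type library. Of 14 cell cycle genes tested, 6 were lower, and 5 without replicate 2. The 6 were CCND1, CDK6 and CCNE2, which drive the cycle, and RB1, CDKN1B and CDKN2A, which restrain it. CCND1 was at 486 to 549.8 in wild type and at 394 to 2713 with a median of 1092 in knockout libraries. Of 14 WNT genes tested, 6 were lower and 1 higher, and 4 and 2 without replicate 2. AXIN2 was at 3.79 to 18.0 in wild type and at 7.57 to 99.5 with a median of 27.4 in knockout libraries. Over all genes tested, 12.1% were higher and 9.15% lower, and 8.55% and 4.84% without replicate 2.

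Among RNA-silencing genes, AGO1 and AGO3 were called higher in wild type, the genes disrupted in some of the knockout lines. Without replicate 2 a single argonaute gene was called. The ranges overlapped for both genes. AGO1 was at 108 to 146 TMM-scaled CPM in wild type, with knockout libraries up to 161. AGO3 was at 100 to 130 in wild type, with knockout libraries up to 120. Of 13 processing genes, DICER1 alone was called, as lower. It was at 95.4 to 106 TMM-scaled CPM in wild type and at 115 to 297 with a median of 167 in knockout libraries, without overlap, and its fitted log2 difference was −0.83 ± 0.087 (SE; edgeR quasi-likelihood, Benjamini-Hochberg adjusted p = 1.25e-05). Of 25 effectors, 3 were higher and 6 lower, and 2 and 4 without replicate 2, where 12.1% and 9.15% of all genes tested were called, and 8.55% and 4.84% without replicate 2. TNRC6A, TNRC6B and TNRC6C were among the lower ones, but their wild-type and knockout ranges overlapped. The deadenylase gene PAN2 was higher, at 43.8 to 64.3 in wild type and at 16.9 to 33.1 with a median of 24.4 in knockout libraries, without overlap.

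Among lncRNAs on the list, 6 of 20 tested were higher and 1 lower, and 4 and 1 without replicate 2. NEAT1 was at 1072 to 1529 TMM-scaled CPM in wild type and at 252 to 641 with a median of 361 in knockout libraries, without overlap. Of 7 structural RNAs tested, 5 were lower, and 3 without replicate 2. RN7SL1 was at 10459 to 13470 in wild type and at 18597 to 27197 with a median of 22514 in knockout libraries. Its near-identical copy RN7SL2 was at 14752 to 19299 in wild type and at 19261 to 24810 with a median of 20841 in knockout libraries, with overlap, and the split between the copies is uncertain. Among 18 miRNA hosts tested, 3 were higher and 2 lower, and 4 and 2 without replicate 2, where 12.1% and 9.15% of all genes tested were called, and 8.55% and 4.84% without replicate 2. MIR31HG and MIR181A1HG were lower, and MIRLET7BHG and MIR23AHG higher. MIR200CHG was also called higher, at 1.94 to 2.16 in wild type and at 0.0678 to 3 with a median of 2.35 in knockout libraries. The wild-type values lay below that median, and the call rests on the lowest knockout libraries.

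RAS and ERK genes had 3 higher and 3 lower of 26, PI3K genes 3 and 3 of 13, and TGF-β genes 1 and 5 of 11. Without replicate 2 these were 2 and 2, 2 and 0, and 1 and 3. Over all genes tested, 12.1% were higher and 9.15% lower, and 8.55% and 4.84% without replicate 2. Stem cell genes had 2 higher and 1 lower of 4, intestinal transcription factors 1 higher of 6, mature gut genes 1 higher of 2, neural genes 1 higher of 4 and blood genes 1 lower of 4. Without replicate 2, intestinal transcription factors and neural genes had 0 calls. No mismatch repair gene of 8, no endothelial gene of 3 and no hepatocyte gene of 1 was called. Without replicate 2, 1 mismatch repair gene was called lower.

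The largest differences without overlap were named by rule, 5 in each direction, in TMM-scaled CPM. LCN2 was at 1.44, 17.8 and 0.814 in wild-type replicates 1 to 3, and at 0 to 0.649 with a median of 0.211 in knockout libraries. Its fitted log2 difference was 5.35 ± 0.66 (SE), and 2.80 without replicate 2, below PELI2 at 3.09. LCN2 is in this set only through replicate 2, since the other wild-type and all knockout values leave its mean under 1. No p-value is therefore given for it, and its rank supports no conclusion. LRP1B, a large lipoprotein receptor gene, was at 5.796, 8.861 and 4.402 in wild type and at 0 to 3.77 with a median of 0.567 in knockout libraries. Because some knockout libraries had no count of LCN2 or LRP1B, their fitted differences depend on the prior count and are no bounds. S100A14 was at 94.7, 145 and 64.8 in wild type and at 0.305 to 54.5 with a median of 16.2 in knockout libraries (log2 difference 3.57 ± 0.31). The lncRNA LINC01405 was at 4.64, 5.04 and 5.70 in wild type and at 0.102 to 2.43 with a median of 0.576 in knockout libraries. PELI2, a ubiquitin ligase gene of innate signalling, was at 6.96, 5.64 and 7.42 in wild type and at 0.105 to 2.87 with a median of 1.13 in knockout libraries. The naming rule required the 3 wild-type libraries to exceed all 12 knockout libraries, so this separation of the 5 genes is no result. LINC01405 averaged 0.760 in knockout libraries and passed the mean of 1 CPM only through wild type.

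The 5 genes lower in wild type were all small non-coding RNAs. RNU12, the U12 RNA of the minor spliceosome, was at 0.815, 1.85 and 1.42 TMM-scaled CPM in wild type and at 13.8 to 73.8 with a median of 38.3 in knockout libraries. Its fitted log2 difference was −4.69 ± 0.27 (SE; edgeR quasi-likelihood, Benjamini-Hochberg adjusted p = 5.29e-08). RNU6ATAC, a further RNA of the minor spliceosome, was at 0.909, 0.669 and 1.69 in wild type and at 3.62 to 13.7 with a median of 9.18 in knockout libraries. RNU2-2P was at 26.8, 39.5 and 50.0 in wild type and at 157 to 452 with a median of 299 in knockout libraries, but it resembles other U2 genes and is uncertain. The small nucleolar RNA SNORA53 was at 0.470, 0.478 and 0.814 in wild type and at 8.54 to 20.6 with a median of 14.3 in knockout libraries. SNORD22, also a small nucleolar RNA, was at 0, 0.223 and 0.301 in wild type and at 0.659 to 5.00 with a median of 1.44 in knockout libraries. The naming rule required the 3 wild-type libraries to lie below all 12 knockout libraries, so this separation of the 5 genes is no result. SNORA53 and SNORD22 averaged 0.587 and 0.175 in wild type and passed the mean of 1 CPM only through the knockout lines. The library kits named are strand-specific, but the counting is not stated to use strand, and whether reads of these short genes were kept apart from those of genes that overlap them was not tested.

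**Figure D5:**
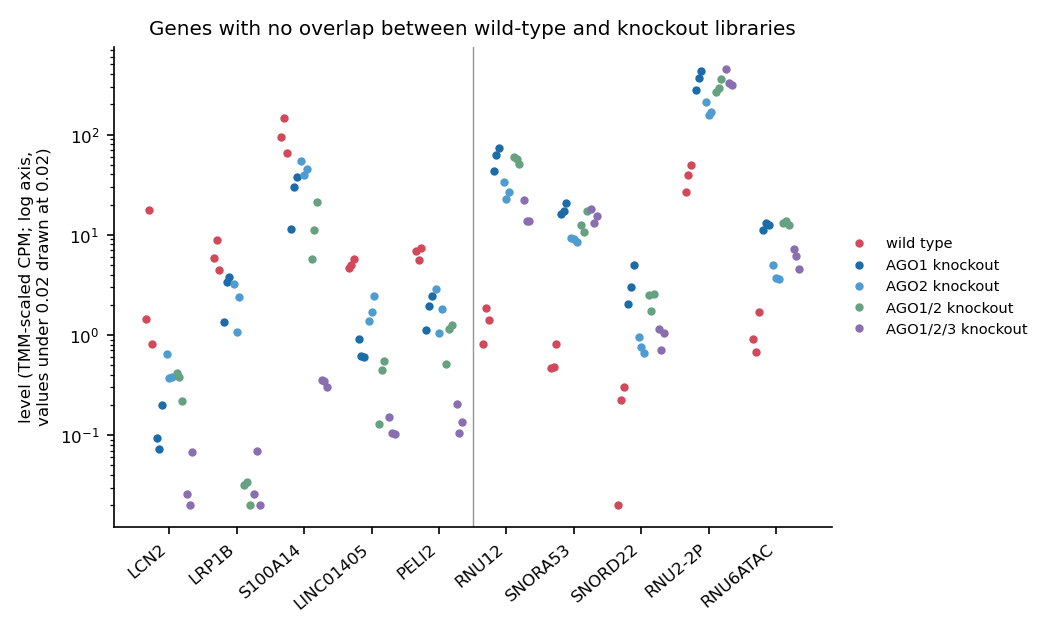
The 5 genes highest and the 5 lowest in wild type relative to the knockout lines, among called genes without overlap, in TMM-scaled CPM on a log axis, with values under 0.02 drawn at 0.02. Each point is a library, coloured by line. RNU12 is at 0.815 to 1.85 in wild type and at 13.8 to 73.8 in the knockout lines.

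Small RNA classes were counted after these values were seen. Of 194 small nucleolar RNAs tested, 39 (20.1%) were lower and 9 (4.64%) higher in wild type, and of 107 small nuclear RNAs, 23 (21.5%) were lower and 8 (7.48%) higher. Over all genes tested, 9.15% were lower and 12.1% higher. Of 14830 protein-coding genes, 11.7% were lower and 13.5% higher, also above both shares. The remaining classes with at least 20 genes tested lay under the lower share. Of 106 annotated miRNA genes, 4.72% were lower and 6.6% higher, and of 20 mitochondrial transfer RNAs, 0% and 20%. Of 334 genes in the class of miscellaneous RNAs, 6.29% were lower and 3.29% higher. Without replicate 2, 29 of 203 small nucleolar RNAs (14.3%) were lower and 5 higher, and 15 of 125 small nuclear RNAs (12%) were lower and 9 higher. Of protein-coding genes, 6.18% were then lower and 10.4% higher. The shares over all genes tested were 4.84% lower and 8.55% higher. Whether differences in library preparation or in RNA of small size contribute was not tested.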

How the data were processed

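RNAseq was analysed in 3 wild-type libraries and, for comparison, 12 knockout libraries. The authors deposited estimated counts (expected counts) per gene from Salmon, one file per sample and not normalized. The submitters' processing notes name STAR 2.5.3a, Salmon 0.11.0 and hg38. The study's methods name other versions of STAR and Salmon, and an annotation other than the one used here for gene lengths, so what was used is uncertain. Per the file headers, the AGO2 line was quantified in another mode, so mode and genotype cannot be told apart there. Library preparation differs between the sources: the labels name Trizol and an Illumina whole-transcriptome kit, the study's methods RNeasy and a ribosomal RNA depletion kit. Both kits are strand-specific, and whether the counting used strand is not stated. Counts were scaled to CPM of the total, and per kilobase of the union of exons in GENCODE v44, with Python 3.11.15. The 708 genes without a name there took 0.254%, 0.224% and 0.232% of wild-type counts.

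Counts rounded to whole numbers were fitted with edgeR 4.0.16 in R 4.3.3 (filterByExpr, TMM, quasi-likelihood test, a mean per line, all 15 samples), as wild type minus the mean of the 4 knockout lines, with Benjamini-Hochberg adjustment. The fit was tested on simulated data. DESeq2 1.42.0, other filters and scalings, a replicate block and leaving out each sample were tried as alternatives. Excess variation is the square root of the squared coefficient of variation minus the inverse mean count.

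Genes were named by rule: members of 24 lists, not all of them printed, the 15 genes leading by counts, by length-scaled level and by excess variation (mean of at least 100 counts), and the 5 largest log2 differences in each direction among called genes that averaged 1 CPM or more and did not overlap. The members and lists were chosen with earlier results of these data known. The eCLIP samples were not analysed here.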

Additional observations from a re-analysis of the deposited data

How the results depend on the processing

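The 10 genes named for their difference from the knockout lines kept direction and an adjusted p at or under 0.05 in 204 of 204 tests under the alternatives (other size factors, DESeq2, other filters, the replicate block, the AGO2 knockout line or each sample left out), and 0 reversed. They were chosen for large differences without overlap, so this tally was largely fixed by the choice and is no support. LCN2 enters through replicate 2, and LINC01405 passed the mean of 1 CPM only through wild type. When at least 10 counts were required in every sample, 6 of the 10 were filtered out and not tested. With one sample left out in turn, 2001 to 3050 genes were called higher and 1133 to 2305 lower in wild type, the lowest counts without wild-type replicate 2, and 1270 were lower without wild-type replicate 1. With the replicate number as a block, 2556 genes were called higher and 1907 lower. The numbers do not pair the samples: correlations of deviations between same-numbered samples ran from −0.308 to 0.295 with a mean of 0.0154, against −0.00716 for other numbers. Without the AGO2 knockout line 3000 were called higher and 2559 lower. DESeq2's Wald test called 2707 higher and 2245 lower. The cause of these differences was not tested.

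Protein-coding genes detected in wild type numbered 11846 to 13489 under the other thresholds, scalings and gene sets tried. Silent genes numbered 2163 when 0 counts were required in every library. The median excess variation was 0.0518 to 0.137 with one wild-type library left out, each value from 2 libraries. Of the 15 most variable genes, 4 remained among genes with at least 1000 counts, a filter that removes the other 11, 9 by the standard deviation of log2(CPM + 1), and 1 without replicate 2, an alternative chosen after seeing the data. With TMM scaling, also added later, the list differences between wild-type libraries were −1.47 (replication), −0.80 (mitosis), 1.32 and −1.45 (ATF4 targets, replicates 2 and 3) and 1.34 (hypoxia). Depth limits genes under about 0.1 CPM.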

Other observations

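Histone and ribosomal protein genes were described above only in part. Histone genes took 0.921%, 0.541% and 0.782% of the counts in wild-type replicates 1 to 3, lowest in replicate 2, as were the genes of DNA replication. The linker histone gene H1-2 was at 659, 329 and 559 CPM. Of 87 ribosomal protein genes, 83 were detected, and they summed to 54737, 55010 and 60088 CPM, highest in replicate 3. There 60 of the 83 had their highest value, against 30.1% of the 12886 genes with at least 100 counts. FTH1, the heavy chain gene of the iron store ferritin, was at 1045, 2596 and 972.5 CPM, while its light chain gene FTL was at 546, 559 and 619.5 CPM, without such a peak in replicate 2. GAPDH and ACTG1, often used to normalize RNA levels, were at 1702, 995 and 2445 CPM and at 3741, 2204 and 3252 CPM. Both were lowest in replicate 2. These genes were chosen after their values were seen, and the differences between single libraries have no test.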
